A study of Mus musculus with 6 samples.

Results

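Glutathione genes were examined in HSCs (hematopoietic stem cells), the rare marrow cells from which every blood lineage arises. The 9 members were the rows of the deposited gene table named Slc7a11, Gclc, Gclm, Gss, Gsr, Gpx1, Gpx4, Gstm1 and Gsto1, out of 27198 genes listed, and all 9 passed the filter on low counts. The HSCs were sorted as Lineage-, Sca1+, c-Kit+, CD34- and CD135- cells from wild-type male C57BL/6 mice 8 to 10 weeks old. The 3 Ctrl libraries came from mice given vehicle, and the 3 l-FA libraries from mice that received ferulic acid (FA), a plant phenolic antioxidant, at 50 mg/kg by daily intraperitoneal injection for 30 days. RNA was amplified as cDNA before sequencing, and the number of mice behind a library is not given in the sources used here, so n counts libraries, and p-values measure only the spread between these libraries, which may be technical.

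Glutathione is a tripeptide of glutamate, cysteine and glycine that serves as the main soluble thiol of the cell. Cystine enters through the antiporter that SLC7A11 forms, glutamate-cysteine ligase (GCLC with its modifier GCLM) joins glutamate and cysteine, and glutathione synthetase (GSS) adds glycine. Peroxidases such as GPX1 and GPX4 oxidize glutathione while reducing peroxides, glutathione reductase (GSR) returns it to the reduced form with NADPH, and transferases such as GSTM1 and GSTO1 use it on other substrates. GPX4 reduces lipid peroxides in membranes, and its loss permits ferroptosis, the iron-dependent cell death that the study examined in HSCs.

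Total counts per library ranged from 19287735 to 20380610, so that raw counts of a gene can be read side by side only roughly. The TMM factors by which edgeR adjusts these totals were 0.968 to 0.979 in Ctrl and 1.025 to 1.032 in l-FA. A small difference in raw counts between the groups can therefore change sign after scaling. All 10 HSC marker genes were detected, and 7 of them were higher and 1 was lower in l-FA at an adjusted p under 0.05 (edgeR's quasi-likelihood test, adjusted over 16520 genes), where 25.5% of all genes tested were higher and 25% lower. Of 14 neutrophil and monocyte markers, 11 were lower and 3 were higher in l-FA, and none was at 0 in a library. Their summed level lay between 23357 and 24200 TMM-normalized CPM (a count scaled to a common library total) in Ctrl and between 6216 and 6533 in l-FA. Mpo, a primary granule enzyme, made up most of that sum, with 18544 CPM in Ctrl and 4938 in l-FA on average. The 3 neutrophil and monocyte markers that rose were Lyz2 (log2 fold change 0.30), Itgam (0.50) and Csf1r (0.10). Summed lymphoid markers, most of them Nkg7, went from 597 to 619 CPM in Ctrl to 366 to 377 in l-FA, with 1 of 4 tested lower and 1 higher, and Ms4a1 (B cells) and Cd8a (T cells) had 0 counts in the l-FA libraries. Megakaryocyte markers summed to 207 to 217 CPM in Ctrl and 295 to 301 in l-FA, with 3 of 5 higher, and mast cell and basophil markers to 153 to 160 and 215 to 223, also with 3 of 5 higher. Erythroid markers summed to 90.1 to 96.7 CPM in Ctrl and 105 to 107 in l-FA. The part of other cells in the results below was not tested, and in bulk RNA fewer cells of a type cannot be told apart from less RNA per cell.

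Of the 9 glutathione genes, 5 fell in HSCs of l-FA-treated mice, namely Gsr, Gclm, Gstm1, Gclc and Gpx1, beside 25% of all genes tested that were lower at an adjusted p under 0.05. Gsr and Gclm fell by more than 2-fold, beside 5.1% of all genes tested that were lower past both limits. Every l-FA library lay below every Ctrl library for the 5 genes that fell, which was so for 29.9% of all genes tested (30.4% lay all above and 60.3% did not overlap in either direction). The other 4 members, Gss, Gpx4, Slc7a11 and Gsto1, had overlapping groups and did not pass. With group as the only term and all 6 libraries, edgeR called no member higher, although 1 (Gss) was higher at an unadjusted p under 0.05 and was called by DESeq2 and by edgeR without Ctrl library 3 or without l-FA library 2, while 25.5% of all genes tested were called higher and 6.68% higher past 2-fold. The log2 fold changes of the 9 genes had a median of -0.49, beside 0.0035 over all genes tested. That median is the value of Gsto1, which did not pass, and it ranged from -0.61 to -0.31 with 1 library left out, the latter without l-FA library 3.

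**Figure D1:**
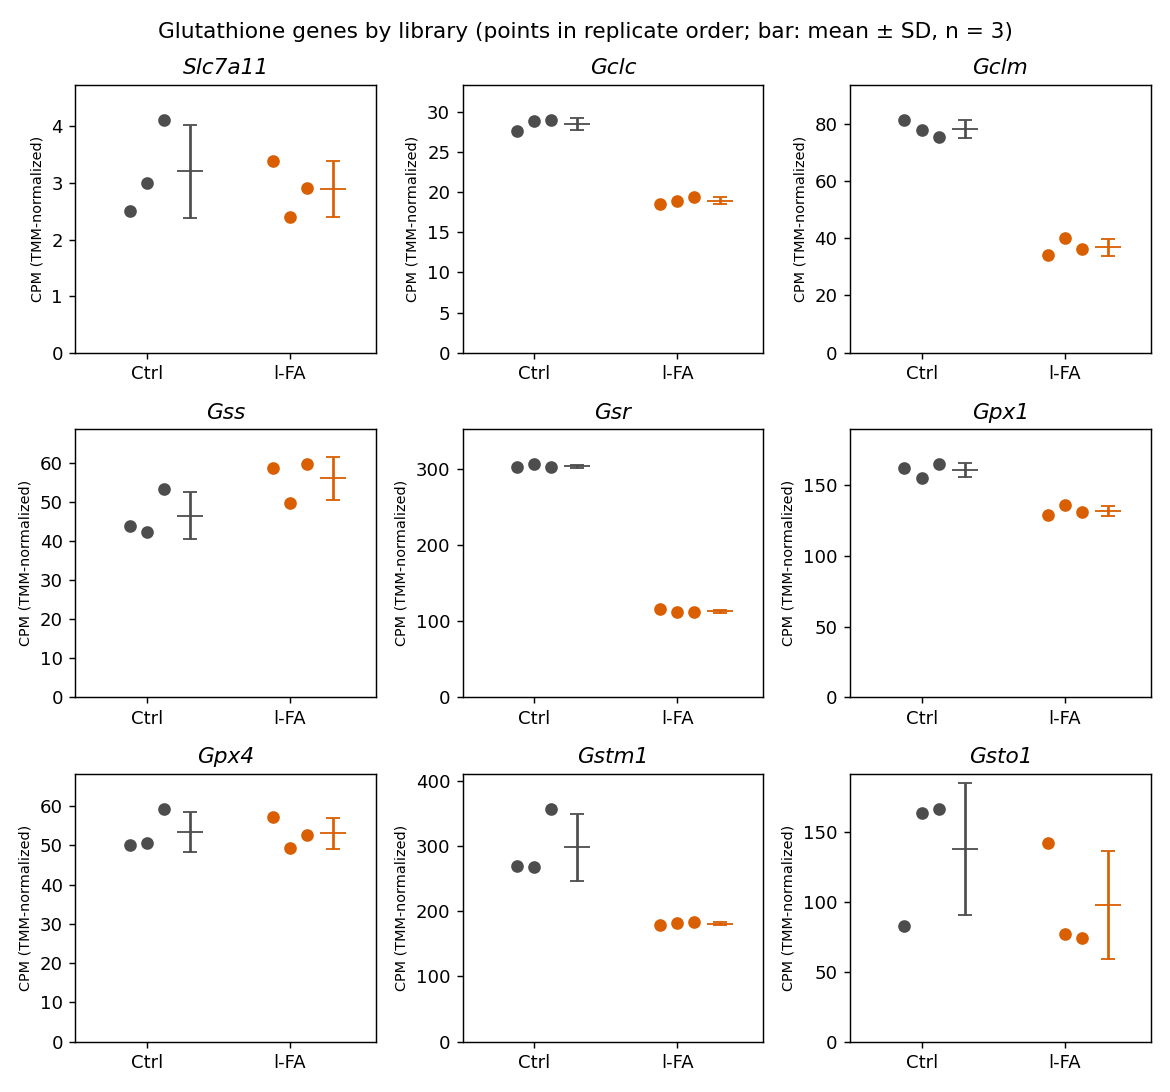
TMM-normalized CPM of each glutathione gene (vertical axes, each from 0) in the 3 Ctrl and 3 l-FA libraries, with points in replicate order and the mean ± SD (n = 3) beside them. The groups are separate for Gclc, Gclm, Gsr, Gpx1 and Gstm1, and the 3 points of Gsto1 split within both groups.

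**Figure D2:**
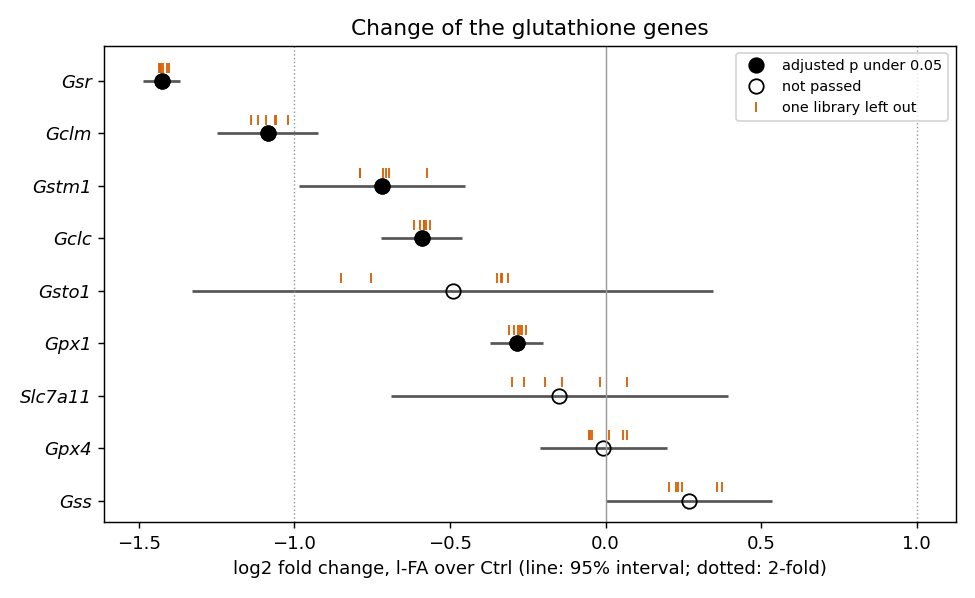
Log2 fold change of each glutathione gene in l-FA over Ctrl (horizontal axis), with its 95% interval as a line and the 6 values obtained with 1 library left out as ticks. Gsr and Gclm lie beyond the dotted 2-fold line, and the intervals of Gpx4, Slc7a11 and Gsto1 span 0.

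Uptake of cystine was represented by Slc7a11 (ENSMUSG00000027737; chromosome 3, 49846975 to 50398063), the transport subunit of the cystine and glutamate antiporter. Its 3 Ctrl libraries held 48, 56 and 82 counts and its l-FA libraries 71, 48 and 58. The groups overlapped throughout, and these counts are the lowest of the 9 genes. The log2 fold change was -0.15, with a 95% interval from -0.69 to 0.39 and an adjusted p of 0.622 (edgeR). No difference was detectable in these libraries. Slc3a2, which encodes the partner chain of the antiporter, had 3002 to 3377 counts in Ctrl and 3165 to 3381 in l-FA (log2 fold change -0.04, adjusted p = 0.554 from edgeR), and was looked at for this partnership.

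The first step of synthesis fell in both subunits, and unequally. Gclc (ENSMUSG00000032350; chromosome 9, 77661817 to 77701767), which carries the active site of the ligase, had 531, 539 and 578 counts in Ctrl and 390, 378 and 387 in l-FA. That is 28.5 ± 0.741 CPM against 18.9 ± 0.409 (mean ± SD over 3 libraries), and the log2 fold change was -0.59 (SE 0.054, edgeR adjusted p of 0.000244). The l-FA libraries lay close together and all under the lowest Ctrl library. Gclm (ENSMUSG00000028124; chromosome 3, 122039206 to 122064381), whose product raises the affinity of the ligase for glutamate and relieves its inhibition by glutathione, had 1562, 1454 and 1501 counts in Ctrl and 717, 805 and 725 in l-FA. Mean CPM ± SD was 78.2 ± 3.04 against 36.9 ± 3.04, with a log2 fold change of -1.09 (SE 0.068, edgeR adjusted p of 6.09e-05). Even the highest l-FA library stayed under the lowest Ctrl library by a wide margin.

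Within each library the ratio of Gclm to Gclc counts does not depend on scaling. It was 2.94, 2.70 and 2.60 in the Ctrl libraries and 1.84, 2.13 and 1.87 in the l-FA libraries. The groups did not overlap, and the log2 ratio was lower in l-FA by 0.50 on average (log2 difference -0.50, two-sided exact permutation p = 0.1, the smallest that 3 libraries against 3 allow). Per length, Gclm stood above Gclc in every Ctrl library (FPKM ratio 1.39 ± 0.0897, SD, n = 3), whereas the ratio was 0.986 ± 0.0805 in l-FA and the FPKM ranges of the 2 genes overlapped. The long noncoding gene Gm17494 covers 58.7% of the listed span of Gclm, and no source used here says whether counting used strand. Gm17494 had 4208 to 4830 counts in Ctrl and 3935 to 4449 in l-FA, and fell less than Gclm (log2 fold change -0.18, SE 0.047, edgeR adjusted p of 0.0184), although that difference was not itself tested. Gm17494 no longer passed without l-FA library 2 or without l-FA library 3. The pseudogenes Gm6061 within Gclm and Gm37692 within Slc7a11 had at most 4 counts.

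Promoters are shown for Gclm, which fell past 2-fold, and for Slc7a11, because among the windows searched only these 2 genes' held a searched motif. RefSeq promoters (GRCm38.p6) were matched for 7 of the 9 members in 11 windows, Gclc and Gsr were not searched, and the 250 bases before each start were searched on both strands. The first motif was TGACNNNGC, the core of the antioxidant response element to which NRF2 with a small MAF protein binds. It was found in 10.2% of all 32851 windows, and among the 7 members searched in that of Gclm alone, as TGACGGTGC on the opposite strand, 134 to 126 bases before the start. The ATF4 motif was TGATGNAA, a core bound by ATF4, the factor of the amino acid response. It was present in 3.45% of all windows and stood in the Slc7a11 window on each strand, at 66 to 59 and 47 to 40 bases before the start. No match overlapped another. The windows are chr3:122245307-122245556 (plus strand) for Gclm and chr3:50443614-50443863 (minus strand) for Slc7a11, printed 5′ to 3′ on the gene's strand with the matches in capitals.
Gclm: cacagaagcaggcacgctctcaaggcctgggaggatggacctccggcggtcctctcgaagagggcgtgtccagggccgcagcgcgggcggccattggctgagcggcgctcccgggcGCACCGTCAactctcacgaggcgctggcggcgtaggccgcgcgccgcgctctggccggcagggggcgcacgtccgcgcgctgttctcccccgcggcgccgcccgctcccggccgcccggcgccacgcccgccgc
Slc7a11: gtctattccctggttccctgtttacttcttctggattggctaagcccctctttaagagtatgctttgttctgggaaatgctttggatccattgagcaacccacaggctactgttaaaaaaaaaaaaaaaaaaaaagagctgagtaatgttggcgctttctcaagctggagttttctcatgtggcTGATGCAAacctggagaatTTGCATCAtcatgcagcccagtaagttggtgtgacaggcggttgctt
A match describes the letters of the window and no binding was measured.

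The second step of synthesis was less settled. Gss (ENSMUSG00000027610; chromosome 2, 155405101 to 155434730) had 842, 788 and 1064 counts in Ctrl and 1233, 997 and 1191 in l-FA. Ctrl library 3 lay above l-FA library 2, so the groups overlapped. Mean CPM ± SD over 3 libraries was 46.5 ± 6.03 against 56.0 ± 5.48, with a log2 fold change of 0.27 (SE 0.11, edgeR adjusted p of 0.0862). DESeq2 gave an adjusted p of 0.0246, and edgeR gave 0.0221 without Ctrl library 3 and 0.0423 without l-FA library 2. The listed span of Acss2, an acetyl-CoA synthetase gene, overlaps 76.1% of that of Gss, and Acss2 itself rose from 46.1 ± 2.60 to 73.9 ± 2.16 CPM (log2 fold change 0.68, SE 0.053, edgeR adjusted p of 0.000129). Without strand, reads of the shared stretch cannot be told apart.

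Recycling showed the largest change of the 9 genes. Gsr (ENSMUSG00000031584; chromosome 8, 34142551 to 34188191) had 5821, 5715 and 6028 counts in Ctrl and 2424, 2236 and 2246 in l-FA. The libraries of a group were almost level with each other, and the coefficient of variation of CPM was 0.648% in Ctrl and 1.82% in l-FA, where counting alone gives 1.31% and 2.08%. The log2 fold change was -1.43 with a 95% interval from -1.49 to -1.37, or 2.69-fold lower in l-FA (SE 0.025, edgeR adjusted p of 9.65e-07). With each library left out it remained between -1.44 and -1.40. Gm24727, a snoRNA gene listed within Gsr, never exceeded 2 counts.

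The genes whose pattern over the 6 libraries was closest to Gclm and Gsr were sought among 11420 other genes (mean count 100 or more) by the root mean square difference of log2 CPM centred on each gene's mean. For Gclm these were E130308A19Rik (0.0251), Gpc3 (0.0514) and Agps (0.0561). For Gsr these were Mcmbp (0.0319), Ap3s1 (0.0320) and Ppp2ca (0.0505). The measure largely reflects the size of the group difference, and none of these genes belongs to the glutathione lists.

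The 2 peroxidases differed from each other. Gpx1 (ENSMUSG00000063856; chromosome 9, 108216102 to 108217542), the abundant cytosolic enzyme, had 3116, 2900 and 3284 counts in Ctrl and 2705, 2724 and 2623 in l-FA. It fell modestly, from 161 ± 4.88 to 132 ± 3.55 CPM (mean ± SD), with a log2 fold change of -0.29 (SE 0.035, edgeR adjusted p of 0.000817). The long noncoding gene Gm57050 is listed over 84.0% of Gpx1 and had nearly the same numbers, 3260 to 3353 counts in Ctrl and 2699 to 2999 in l-FA. With both rows summed the log2 fold change was -0.29 (SE 0.020, edgeR adjusted p of 8.37e-05).

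Gpx4 (ENSMUSG00000075706; chromosome 10, 79883000 to 79892273) had 962, 944 and 1181 counts in Ctrl and 1201, 990 and 1052 in l-FA. The groups covered the same range, with mean CPM ± SD of 53.3 ± 5.15 and 53.1 ± 3.93. The log2 fold change was -0.01, with a 95% interval from -0.21 to 0.20 (edgeR adjusted p of 0.953). Upper-quartile scaling, which moved the median over all genes tested from 0.0035 to 0.0275, moved Gpx4 alike, to 0.017. Gpx4 counts are uncertain because the transcribed pseudogene Gpx4-ps2, named after its values were seen, held 2813 to 3194 counts in a library, more than Gpx4 itself. In the GENCODE M21 transcripts 89.3% of the 31-base words of Gpx4-ps2 also occur in Gpx4. With Gpx4-ps1 and Gpx4-ps2 added, the log2 fold change of Gpx4 was -0.05 (SE 0.042, edgeR adjusted p of 0.397). The ratio of Gpx4 to Gpx1 counts was 0.309, 0.326 and 0.360 in Ctrl and 0.444, 0.363 and 0.401 in l-FA, and the groups lay close without overlap (log2 difference 0.28, two-sided exact permutation p = 0.1, the smallest possible).

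Among the transferases, Gstm1 (ENSMUSG00000058135; chromosome 3, 107919571 to 107925289) had 5158, 5000 and 7110 counts in Ctrl and 3747, 3633 and 3667 in l-FA. Ctrl library 3 stood above the other 2, and all Ctrl libraries stood above the l-FA libraries. Mean CPM ± SD was 298 ± 51.1 against 181 ± 2.58, with a log2 fold change of -0.72 (SE 0.11, edgeR adjusted p of 0.00208), and was -0.57 with Ctrl library 3 left out. Gstm2-ps1, a pseudogene chosen after its values were seen, shares 54.1% of its 31-base words with Gstm1 transcripts and 4.31% with those of Gstm2. It fell from 66.7 ± 4.32 to 34.0 ± 1.18 CPM, a log2 fold change of -0.97 (SE 0.060, edgeR adjusted p of 5.81e-05). Summing it with Gstm1 gave a log2 fold change of -0.76 for Gstm1 (SE 0.099, edgeR adjusted p of 0.000965).

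Gsto1 (ENSMUSG00000025068; chromosome 19, 47843409 to 47853229), an omega class transferase that also reduces dehydroascorbate, had 1591, 3046 and 3313 counts in Ctrl and 2985, 1546 and 1480 in l-FA. Ctrl library 1 sat with l-FA libraries 2 and 3, and l-FA library 1 sat with Ctrl libraries 2 and 3. The coefficient of variation of CPM was 34.4% in Ctrl and 39.3% in l-FA, where counting alone gives 1.94% and 2.23%. The log2 fold change of -0.49 had a 95% interval from -1.33 to 0.35 (edgeR adjusted p of 0.285), which this spread between libraries covers. It was -0.85 without l-FA library 1, -0.75 without Ctrl library 1 and -0.31 without l-FA library 3, and passed in none of the 6 such fits. Glrx, which encodes the cytosolic glutaredoxin and was singled out after its values were seen, followed Gsto1 through the libraries, with 725, 1276 and 1327 counts in Ctrl and 1306, 644 and 714 in l-FA. Of the 11420 genes compared, Glrx was the nearest to Gsto1 (root mean square difference 0.0893 on the log2 scale), ahead of Rchy1 (0.211). Cfap43, whose listed span contains Gsto1, never exceeded 8 counts.

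**Figure D3:**
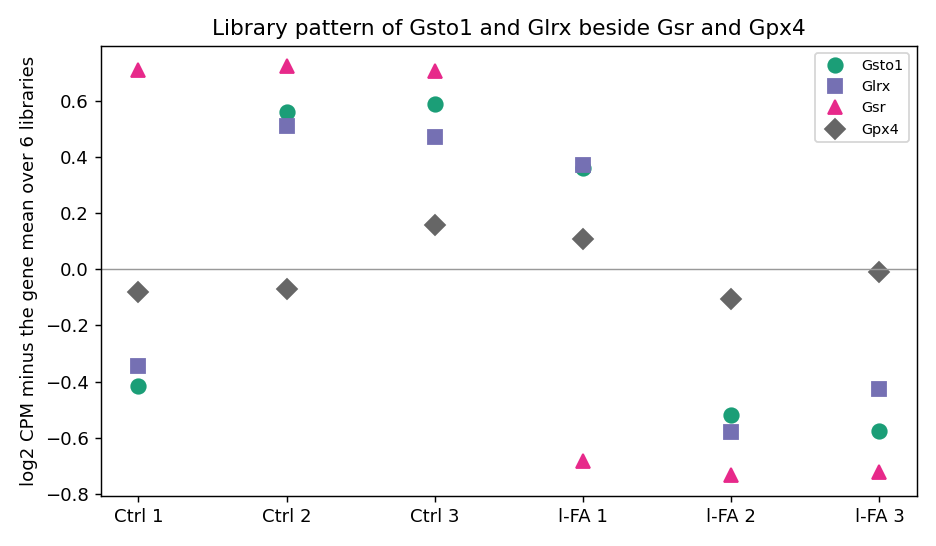
Log2 CPM of Gsto1, Glrx, Gsr and Gpx4 in each of the 6 libraries (horizontal axis), each minus its mean over the libraries (vertical axis). Gsto1 and Glrx are low in Ctrl 1, l-FA 2 and l-FA 3 and high in the other 3 libraries, while Gsr splits by group.

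Levels per length were compared in FPKM, the unit that divides counts by gene length and library total. In Ctrl the order from the top was Gstm1 (101 ± 17.9), Gsr (99.3 ± 0.301), Gpx1 (45.8 ± 1.61), Gsto1 (38.2 ± 13.2), Gpx4 (18.5 ± 1.88), Gclm (9.74 ± 0.353), Gclc (7.02 ± 0.195), Gss (5.61 ± 0.758) and Slc7a11 (0.199 ± 0.0522), each as mean ± SD over 3 libraries. The library ranges of Gstm1 and Gsr overlapped, as did those of Gpx1 and Gsto1, and all other neighbours in that order were separate. In l-FA, Gsr (39.0 ± 0.851) came after Gstm1 and Gpx1 and overlapped with Gpx1 (39.7 ± 0.960) above it and Gsto1 (28.7 ± 11.4) below it. Gclm (4.85 ± 0.386) overlapped with Gclc (4.92 ± 0.0928), while Gss (7.13 ± 0.709) was above both subunits. These are levels as deposited, without the TMM scaling used for the fold changes. They leave out reads counted in the rows of Gpx4-ps2, Gm57050 and Gstm2-ps1. With its pseudogene rows added, Gpx4 had 3950, 3774 and 4398 counts in Ctrl, where alone it had 962, 944 and 1181. The places of Gpx4, Gpx1 and Gstm1 in the order are therefore uncertain. So are those of Gss and Gclm, whose listed spans overlap Acss2 and Gm17494, because it is not known whether counting used strand.

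**Figure D4:**
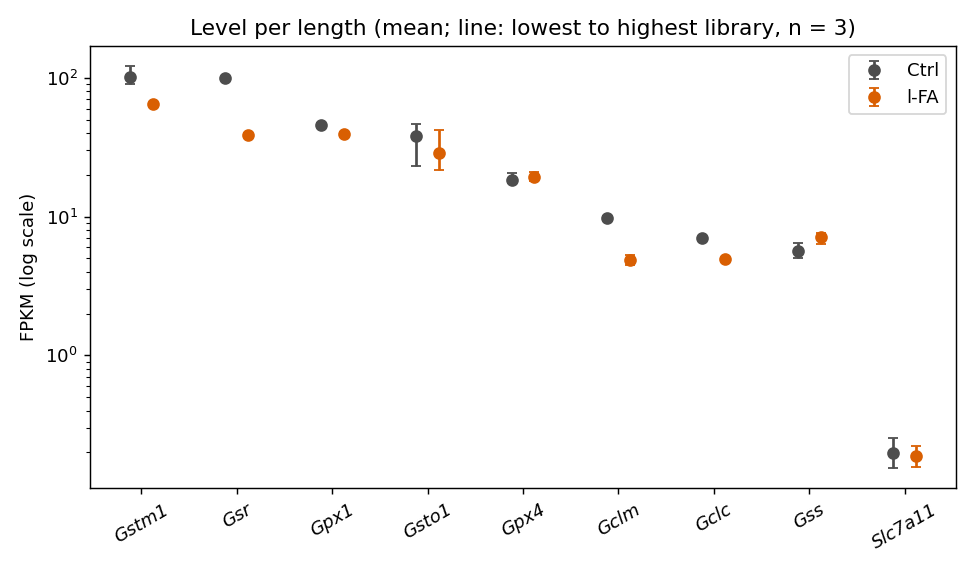
Mean FPKM of the glutathione genes (vertical axis, log scale) in Ctrl and l-FA, with lines from the lowest to the highest of 3 libraries. Gsr drops from beside Gstm1 to beside Gpx1, and the levels of Gclm and Gclc meet in l-FA.

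Of 7 genes for factors known to act on glutathione genes, 3 fell and 1 rose, and none passed the 2-fold limit, where 50.5% of all genes tested passed in either direction. Keap1, whose product marks NRF2 for degradation, had a log2 fold change of -0.19 (SE 0.042, edgeR adjusted p of 0.0086). Bach1, a repressor that competes at antioxidant response elements, had 214 to 278 counts in Ctrl and 174 to 197 in l-FA (log2 fold change -0.44, edgeR adjusted p of 0.016). The related repressor Bach2 rose from 118 to 128 counts in Ctrl to 163 to 215 in l-FA (0.52, edgeR adjusted p of 0.0158). Mafk, a small MAF partner, fell (-0.10, edgeR adjusted p of 0.0197) and passed in 3 of 6 fits that each left out 1 library. Nfe2l2 (0.06), Mafg (-0.05) and Atf4 (0.09) did not pass. Atf4 had 1786, 1666 and 985 counts in Ctrl and 1680, 1671 and 1653 in l-FA, and without the low Ctrl library 3 its log2 fold change turned to -0.16 and passed (edgeR adjusted p of 0.0234). Without l-FA library 1 only 1 of the 7 was called lower, and without Ctrl library 3 none was called higher and 4 were called lower, Atf4 among them.

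Of 67 further genes that supply, use, break down or move glutathione, the table listed 59 and 51 were tested. At an adjusted p under 0.05, 19 fell and 10 rose, together 56.9% of those tested, beside 50.5% over all genes. The median log2 fold change was -0.10, and was -0.20 without l-FA library 1, -0.17 without Ctrl library 2, -0.16 without l-FA library 3 and -0.044 without l-FA library 2. Without Ctrl library 1, or without l-FA library 3, 6 genes were called higher in place of 10.

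Genes of NADPH supply, the reducing power that GSR consumes, fell in 3 of 4 tested, beside 25% of all genes tested. Pgd, of the pentose phosphate pathway, had 4452, 4518 and 4503 counts in Ctrl and 2716, 2626 and 2614 in l-FA (log2 fold change -0.84, SE 0.032, edgeR adjusted p of 1.13e-05). Cytosolic isocitrate dehydrogenase, Idh1, had 2846, 2684 and 2830 counts in Ctrl and 1683, 1582 and 1660 in l-FA (-0.84, SE 0.035, edgeR adjusted p of 1.45e-05). G6pdx, which feeds Pgd, fell less (-0.35), and mitochondrial Idh2 had a log2 fold change of -0.03 that did not pass (edgeR adjusted p of 0.364). G6pdx and Idh2 fall outside the naming rule and were chosen after their values were seen.

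Other peroxidases split by gene. Gpx3, the secreted peroxidase, had 219, 185 and 240 counts in Ctrl and 32, 28 and 34 in l-FA, a log2 fold change of -2.85 (SE 0.13, edgeR adjusted p of 2.16e-05), which is larger in size than that of Gsr. Prdx6, a peroxiredoxin that takes its electrons from glutathione, fell by 0.38 on the log2 scale, and Gpx7, of the endoplasmic reticulum, rose from 92 to 104 counts in Ctrl to 160 to 175 in l-FA (0.69, edgeR adjusted p of 0.00162). Of 4 glutaredoxins tested, 2 fell and 2 did not pass, beside 25% of all genes tested that were lower. Those that fell were Glrx3 (-0.31) and Glrx5 (-0.38), which act in iron-sulfur cluster handling.

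Of 17 transferases tested besides the members, 7 rose, 1 fell and 9 did not pass, and the share that passed in either direction is near the 50.5% of all genes tested. Of those that rose, Gstk1, Mgst3 and Ltc4s each passed in 1 of 6 fits with 1 library left out, and Gstm2 in 3 of 6. Gstm4, Gstm7 and Gstt2 passed in all 6. Gstk1, Mgst3, Ltc4s, Gstm2 and Gstm4 fall outside the naming rule and were chosen after their values were seen. Gstm7 had 83, 134 and 136 counts in Ctrl and 313, 280 and 240 in l-FA, a log2 fold change of 1.16 (SE 0.20, edgeR adjusted p of 0.00313), opposite in direction to Gstm1 of the same mu class. Without Ctrl library 1 the value for Gstm7 was 0.96, under the 2-fold limit. Gstt2 rose by 0.37 on the log2 scale, and Hpgds, the hematopoietic prostaglandin D synthase of the sigma class, fell by 0.64. The mu class genes are close in sequence, so counts can be shared among them.

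In precursor supply, 2 of 5 genes tested fell and 3 did not pass, beside 25% of all genes tested that were lower. Slc1a5, the glutamine transporter, fell (log2 fold change -0.43, edgeR adjusted p of 4.34e-05). Cbs, which makes cystathionine on the way from homocysteine to cysteine, had 73, 57 and 83 counts in Ctrl and 0 in all l-FA libraries, and was at least 24.9-fold lower against a floor of 3 counts per library. Of 9 genes of breakdown and salvage tested, 3 fell, 1 rose and 5 did not pass. Over all genes tested, 50.5% passed in either direction, with 25.5% higher and 25% lower. Ggt1, which opens glutathione outside the cell, had 33 to 48 counts in Ctrl and 12 to 23 in l-FA (-1.28, edgeR adjusted p of 0.00861). Lap3 fell by 0.45 on the log2 scale, and Ggt5 rose by 0.36. The glyoxalases Glo1 (-0.30) and Hagh (-0.29), which use glutathione to clear methylglyoxal, both fell, and Glo1 passed in 4 of 6 fits with 1 library left out. Of 5 transporters tested, 3 fell, 1 rose and 1 did not pass, beside 50.5% of all genes tested that passed in either direction. Abcc4 (-0.44) and the mitochondrial glutathione carrier Slc25a39 (-0.38) fell, while Slc25a40 (0.21, edgeR adjusted p of 0.0469) passed in 1 of those 6 fits.

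**Figure D5:**
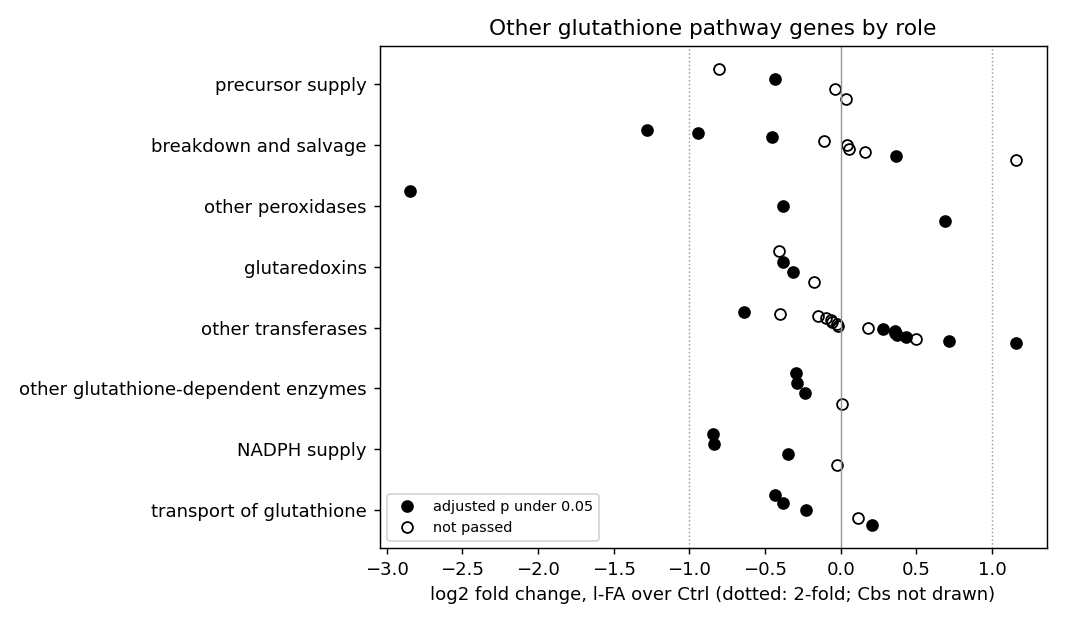
Log2 fold change in l-FA over Ctrl (horizontal axis) of the 50 tested genes of the wider list other than Cbs, by role (vertical axis), filled where the adjusted p is under 0.05. Genes of NADPH supply lie at or left of 0, while most filled points among the other transferases lie right of it.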

How the data were processed

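RNA of sorted HSCs was sequenced in 3 Ctrl and 3 l-FA libraries. The authors deposited a gene table with raw counts and, from those counts, FPKM values. The submitters' processing notes name HISAT2, SAMtools 1.3.1, StringTie, edgeR and the build GRCm39, so gene coordinates are given as listed, and the RefSeq promoters are on GRCm38.p6. Samples were grouped by their labels.

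Counts were fitted with edgeR 4.0.16 in R 4.3.3 (TMM, filterByExpr, glmQLFit and glmQLFTest) over 16520 genes, with Benjamini-Hochberg adjustment, and the same code was tested on simulated data. The SE is the size of the log2 fold change divided by the square root of F. Limits were an adjusted p of 0.05 and a fold change of 2. Alternatives were DESeq2 1.42.0, other scalings and filters, the replicate number as a block and each library left out. Ratios were tested by exact permutation.

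The members and gene lists were chosen with earlier results of these data known. Named genes were the members, 7 regulators, genes overlapping a member, the nearest in pattern to Gclm and Gsr, and from the wider list those past both limits and, for each role, the 2 largest rises and 2 largest falls with an adjusted p under 0.05 and a mean count of at least 100. Other genes named are said to be chosen later. The cDNA was amplified and the sources used here describe no molecular identifiers, so counting error leaves out amplification error.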

Additional observations from a re-analysis of the deposited data

How the results depend on the processing

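The 5 falls kept their direction and side of the threshold under every alternative run. The log2 fold change of Gss (0.27) passed with DESeq2 (0.27), with the replicate block (0.27, edgeR adjusted p of 0.0318) and in 2 of 6 fits without 1 library (range 0.20 to 0.37), so that DESeq2 and the replicate block each called 1 member higher, and 0 to 1 with a library left out. Of the members, Gpx4 and Slc7a11 turned sign and passed in no fit. Gpx4 was 0.017 under upper-quartile scaling, 0.00025 where each library had to reach 10 counts and -0.052 to 0.070 with a library left out, and Slc7a11 was -0.30 to 0.068 with a library left out. Past both limits 1946 genes were called, 3335 with no low-count filter and 930 where each library had to reach 10 counts. In the wider list 10 genes rose, 5 with the replicate block and 6 to 7 with a library left out. Past 2-fold 1 rose, 2 with DESeq2 and 2 without a filter (0 to 2 with a library left out), and 3 fell, 5 without a filter. Of the regulators 1 to 4 were lower and 0 to 1 higher with a library left out. Atf4 turned from 0.09 to -0.16 and passed without Ctrl library 3. Filters change the genes tested by construction, and for the other shifts the cause was not tested. Same-numbered libraries did not deviate together (correlations of -0.05 to 0.0187), so the numbers are not taken as a pairing, and the block changed no other member's call. Rows summed with pseudogenes or Gm57050 were chosen after seeing the data. Depth limits Slc7a11 most.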
